A study of Mus musculus with 4 samples.

Results

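The BMP readout genes described here are the 4 inhibitor-of-DNA-binding genes Id1, Id2, Id3 and Id4, the 2 inhibitory Smad genes Smad6 and Smad7, and Bambi. They were taken by gene symbol, and all 7 were found among the 24972 genes of the table and passed the filter on low values (an average of 1 or more), as did 17979 genes in all. RNA came from the mandibular dental arch (the part of the lower jaw that bears teeth) of mice at embryonic day 17.5. There were 2 wild-type libraries (Ascl5WT/WT, label codes 15 and 20) and 2 libraries homozygous for an altered Ascl5 allele (Ascl5Mut/Mut, codes 18 and 14, called mutant below). Ascl5 encodes a tissue-specific basic helix-loop-helix (bHLH) transcription factor. The labels do not describe the alteration or say whether each library is 1 embryo or a pool, and p-values measure the spread between these libraries, which may be partly technical.

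Bone morphogenetic proteins (BMPs) bind paired serine/threonine kinase receptors, which phosphorylate Smad1, Smad5 and Smad9. These enter the nucleus with Smad4 and switch on the Id genes within a short time, so Id RNA is widely read as a sign of BMP input. Smad6, Smad7 and Bambi are induced by the same route and act back on it: the inhibitory Smads block receptors and receptor-regulated Smads, and BAMBI is a receptor-like membrane protein without a kinase. Id proteins have a helix-loop-helix but no DNA-binding basic region. They pair with the E proteins (encoded by Tcf3, Tcf4 and Tcf12), which tissue-specific bHLH factors need as partners. In teeth, BMP signals pass between epithelium and mesenchyme, and Msx1 and Msx2 are among their known targets.

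Sequence from the window upstream of the annotated start is shown for the 3 members whose RefSeq window (GRCm38.p6, up to 250 bases) held bases outside the gene's own GENCODE exons, as the proximal control sequence of genes that answer the same signal. Capitals mark the palindromic GC-rich Smad element GGCGCC and the E-box CANNTG, to which bHLH pairs bind. Both strands were searched. The Id2 stretch (chr12:25096254-25096342, minus strand) is the part of its window farthest from the start and lies in an intron of a longer Id2 transcript, and the Id4 (chr13:48260866-48261115, plus strand) and Smad6 (chr9:64022060-64022309, minus strand) stretches lie upstream of all exons of those genes.
Id2: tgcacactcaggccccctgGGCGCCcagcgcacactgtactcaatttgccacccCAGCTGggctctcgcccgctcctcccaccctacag
Id4: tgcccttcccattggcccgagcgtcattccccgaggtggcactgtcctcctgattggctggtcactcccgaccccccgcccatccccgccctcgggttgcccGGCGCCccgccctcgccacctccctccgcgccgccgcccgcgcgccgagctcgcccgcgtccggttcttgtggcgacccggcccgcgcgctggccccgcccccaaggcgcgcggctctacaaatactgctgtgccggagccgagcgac
Smad6: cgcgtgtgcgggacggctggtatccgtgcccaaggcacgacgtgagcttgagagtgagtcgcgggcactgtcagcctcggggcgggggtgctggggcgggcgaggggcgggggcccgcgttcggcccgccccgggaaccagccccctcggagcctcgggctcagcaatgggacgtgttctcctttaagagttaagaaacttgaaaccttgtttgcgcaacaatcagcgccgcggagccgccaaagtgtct

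GGCGCC stood once in the Id2 window, which lies inside the longest annotated extent of Id2, and once in the Id4 window. It stood at least once in 9.59% of all 32851 RefSeq windows of 250 bases. The E-box stood once, in the Id2 window, and in 66.2% of all windows. The Smad6 stretch held neither motif, and neither did the Id3 window, which began within an Id3 exon and is not shown. The Smad palindrome GTCTAGAC (0.167% of all windows) and the Smad half-element CAGACA (17.1%) were in none of the 4 member windows. GC content was 62.8% in the windows of Id2 and Id3, 75.6% for Id4 and 66.8% for Smad6, against a median of 52.4% over all windows. Id1, Smad7 and Bambi had no entry.

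None of the 7 genes passed the test between genotypes over all genes (limma, adjusted p = 0.9999 for each), where 0.0111% of tested genes passed, and none had an unadjusted p under 0.05, where 4.27% of tested genes did. In all, 6 of the 7 had a log2 fold change below 0, as did 49.4% of tested genes. The median over the 7 was -0.22 on the log2 scale, and the median over all tested genes was 0.0025. In 3 members, Id1, Id3 and Smad7, both mutant libraries lay below both wild-type libraries. Over all tested genes, 14% were lower in that way and 13.4% higher, 27.4% in all. At 2 libraries per genotype, the smallest two-sided p that an exact permutation test can give for a gene is 0.333. In this mixed tissue, fewer cells of a type and less RNA per cell cannot be told apart.

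**Figure D1:**
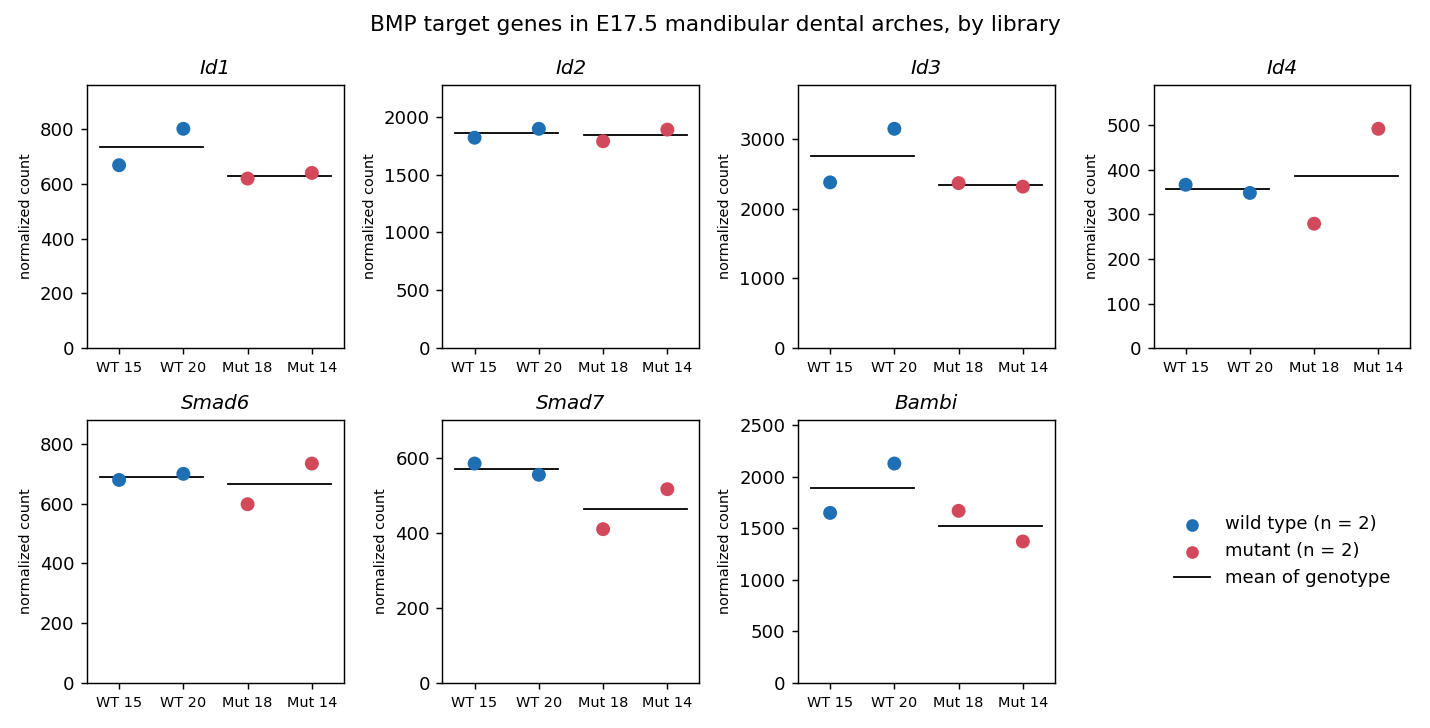
Normalized count of each gene (vertical axis, starting at 0) in the 4 libraries (horizontal axis); points are libraries, blue for wild type and red for mutant, and lines are genotype means. Id1, Id3 and Smad7 have both mutant points below both wild-type points, and the Id4 mutant points (279 and 492) lie on either side of the wild-type pair.

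Of the Id genes, Id1 (chromosome 2, 152736251 to 152737410, GRCm38) is the member most often used as a BMP reporter. Wild type 15 had 668 normalized counts and wild type 20 had 801, while mutant 18 had 619 and mutant 14 had 639.8. The mutant pair lay under the wild-type pair, with wild type 20 standing above the other 3. The genotype means were 734 ± 94.1 and 629 ± 14.6 (SD, n = 2 each), a log2 fold change of -0.22 (SE 0.16, 95% confidence interval -0.58 to 0.15). The wild-type libraries differed from each other by 0.26 on the log2 scale, more than the genotypes did.

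Id3 (chromosome 4, 136143497 to 136145755), whose protein shares the E-protein partners of Id1, followed the same order in wild type. Wild type 15 had 2375 and wild type 20 had 3143, against 2365 in mutant 18 and 2314 in mutant 14. Wild type 15 and mutant 18 were nearly equal, so the lower mutant mean (2339 ± 35.6 against 2759 ± 543) came with a single high wild-type library. The log2 fold change was -0.22 (SE 0.16, interval -0.60 to 0.15), and without wild type 20 it was -0.022. With values scaled to equal upper quartiles the genotypes overlapped for Id3.

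Id2 (chromosome 12, 25093799 to 25097140), an Id gene with roles in many epithelial and blood lineages, was the steadiest member. It was at 1818 and 1896 in wild type 15 and 20, against 1788 and 1889 in mutant 18 and 14. The genotypes overlapped, and the highest value was 1.06 times the lowest. Of 12183 other named genes with a mean of at least 100, 3769 lay within 0.1 of Id2 in their centred log2 profile, so a flat profile of this kind was common. A processed copy, Gm6175, matches 380 bases of Id2 at 91.8% identity and was not analysed here, so shared reads cannot be told apart. The log2 fold change was -0.015 (SE 0.13, interval -0.31 to 0.28), which leaves folds from 0.806 to 1.215 within the interval.

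Id4 (chromosome 13, 48261228 to 48266026), which is known for roles in neural precursors and in osteoblast differentiation, had the widest spread. It stood at 367 and 348 in wild type 15 and 20, 279 in mutant 18 and 492 in mutant 14. The mutant libraries were the lowest and the highest of the 4, and they differed by 0.82 on the log2 scale against 0.074 between the wild-type libraries. The log2 fold change was 0.05 (SE 0.27, interval -0.56 to 0.67), and it turned to -0.36 without mutant 14 and was 0.46 without mutant 18. Antisense transcripts overlap Id4 exons, and the strand setting of the counting is not given; one of them, A330033J07Rik, was at 5.25, 2.96, 0.952 and 0 in libraries 15, 20, 18 and 14, far below Id4.

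Per kilobase of exon, the order of the Id genes was the same in all 4 libraries, with Id3 highest, then Id2, Id1 and Id4. The levels per kilobase in wild type were 1540.5 ± 303 for Id3, 762 ± 22.4 for Id2, 633 ± 81.1 for Id1 and 92.8 ± 3.37 for Id4 (SD, n = 2). In mutant they were 1306 ± 19.9, 754 ± 29.2, 543 ± 12.6 and 100.2 ± 39.1. Id2 and Id1 were the closest neighbours among the upper 3, at 778 and 690.5 per kilobase in wild type 20, and Id4 was the smallest part of the Id total, at 2.73% to 4.66% per library. Exon lengths are the union over annotated transcripts, which lowers the per-kilobase level of genes with long alternative exons.

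Among the feedback inhibitors, Smad7 (chromosome 18, 75367529 to 75395935), which blocks both BMP and TGF-beta receptors, was at 585 and 555 in wild type 15 and 20, against 410.3 and 517 in mutant 18 and 14. Both mutant values were lower, and mutant 18 stood further from wild type than mutant 14 did. The means were 570.4 ± 21.2 and 464 ± 75.5, or 0.813 times the wild-type mean in mutant. The log2 fold change was -0.31 (SE 0.17, interval -0.71 to 0.09), -0.47 without mutant 14 and -0.14 without mutant 18. It kept its direction with each library left out in turn.

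Smad6 (chromosome 9, 63953076 to 64022059), which acts more selectively on BMP than on TGF-beta signals, was at 679 and 699.8 in wild type 15 and 20, 598 in mutant 18 and 734 in mutant 14. The mutant libraries lay on either side of the wild-type pair, as they did for Id4. The log2 fold change was -0.06 (SE 0.16, interval -0.43 to 0.32), and without mutant 18 it was 0.091. Per kilobase Smad6 stood above Smad7 in each library, by 1.64 and 1.78 times in wild type 15 and 20 and by 2.06 and 2.003 times in mutant 18 and 14. That ratio was higher in both mutant libraries than in both wild-type libraries. The difference in this ratio was not tested.

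Bambi (chromosome 18, 3507923 to 3516404) was at 1650 and 2129 in wild type 15 and 20, against 1669.7 and 1372 in mutant 18 and 14. The genotypes overlapped, since mutant 18 stood above wild type 15, with wild type 20 highest and mutant 14 lowest. The means were 1889 ± 339 and 1521 ± 210.2, and the log2 fold change was -0.31 (SE 0.17, interval -0.71 to 0.09). On the per-kilobase scale Bambi (372 ± 66.8 in wild type) lay above Smad6 (215 ± 4.51) and Smad7 (126 ± 4.69), and this order held in each library. Its log2 fold change ranged from -0.49 without wild type 15 to -0.12 without wild type 20.

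**Figure D2:**
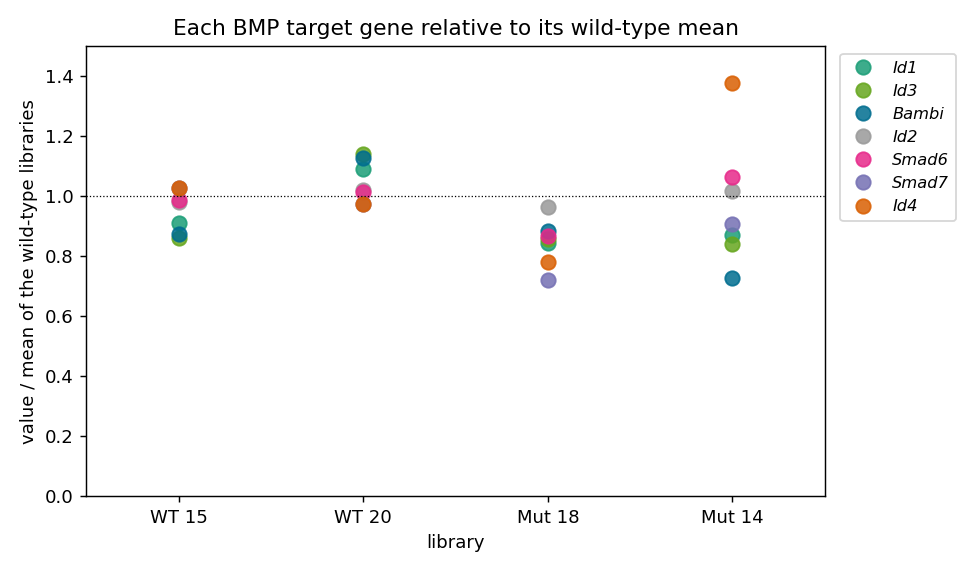
Value of each gene divided by its own wild-type mean (vertical axis) in each library (horizontal axis); each point is 1 gene in 1 library and the dotted line is 1. Mutant 18 has all 7 genes below 1 (0.719 for Smad7 to 0.963 for Id2), while mutant 14 ranges from 0.727 for Bambi to 1.38 for Id4.

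The members did not share one profile over the 4 libraries. Likeness was measured as the root-mean-square difference between log2 profiles after each gene was centred on its own mean, where 0 is identical. Id1 and Id3 were the closest of the 21 pairs (0.0576), followed by Id2 and Smad6 (0.0797) and by Id3 and Bambi (0.0992). Id4 and Bambi were the furthest apart (0.456). Id1, Id2, Id3 and Bambi had their highest value in wild type 20. Id4 and Smad6 had their highest value in mutant 14 and lowest in mutant 18, and Smad7 was highest in wild type 15. Each value rests on 4 points, so many genes outside the pathway were as close or closer.

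The genes nearest to each member by that measure came from the whole table. Cox18 (0.0142) and Tnfrsf12a (0.0164) were nearest to Id1, and 844 of 12183 genes lay within 0.1. For Id3 they were Cd320 (0.0225) and Card19 (0.0314), with 376 genes within 0.1. Khdc4 (0.00279) and Ppp1r21 (0.00331) were nearest to Id2, and Accs (0.00742) and Slc48a1 (0.00759) to Smad6. Dennd6b (0.0224) and Efna2 (0.0265) were nearest to Smad7, and C1qtnf5 (0.0147) and Tspan4 (0.0361) to Bambi. Id4 had the fewest near genes, 46 within 0.1, led by Foxo6 (0.0453) and Eml5 (0.0513).

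The partners of the Id proteins were then set beside them. The E-protein gene Tcf3 was at 3402 and 3147 in wild type 15 and 20, against 2575 and 3251 in mutant 18 and 14, Tcf4 at 7618, 6801, 8296 and 7568, and Tcf12 at 6039.9, 6224, 6874 and 5522 in the same order. All 3 overlapped between genotypes, with log2 fold changes of -0.18, 0.14 and 0.01 (limma, unadjusted p = 0.284, 0.370 and 0.965). The 4 Id genes together were at 2743 and 3313 per kilobase in wild type 15 and 20, against 2659.8 and 2746 in mutant 18 and 14. Divided by the 3 E-protein genes per kilobase, this gave wild-type ratios of 1.82 and 2.32 and mutant ratios of 1.92 and 1.91. On this scale the mutant ratios lay between the wild-type ratios, so the RNA balance of Id and E-protein genes did not separate the genotypes. The level of the ratio depends on annotation, since union exon lengths were 27382 bases for Tcf4 and 15529 for Tcf12 but 1160 to 3849 for the Id genes. Without division by length, the Id genes summed to 5228, 6188, 5051 and 5335 normalized counts in libraries 15, 20, 18 and 14. The E-protein genes summed to 17059, 16172, 17744 and 16341.

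**Figure D3:**
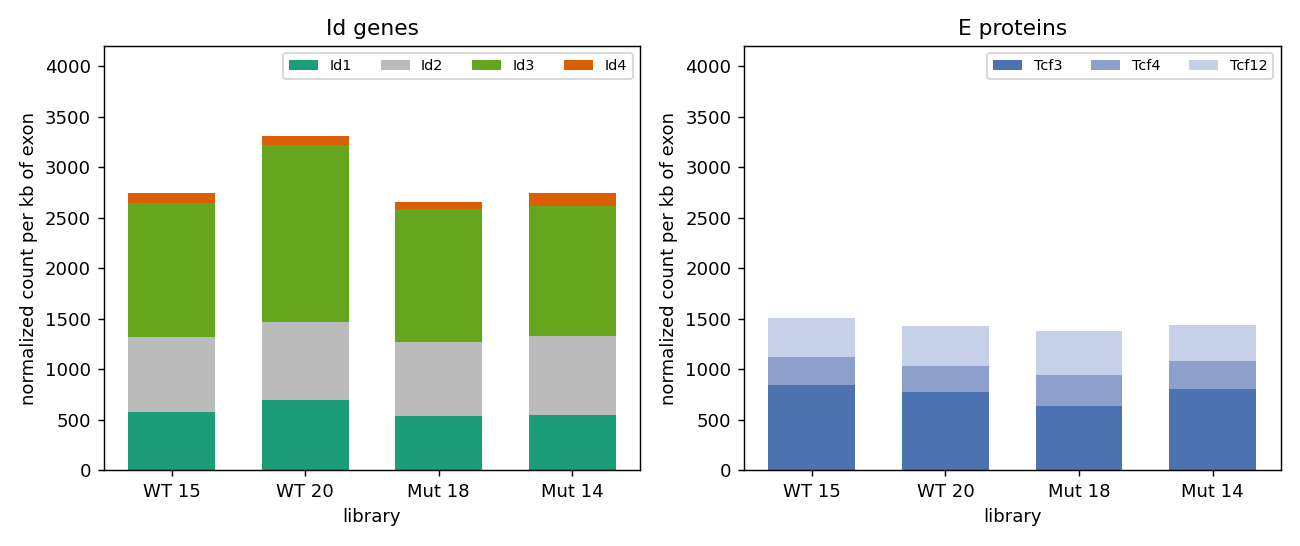
Normalized counts per kilobase of exon (vertical axes, starting at 0) stacked by gene for the Id genes (left) and the E-protein genes (right), one bar per library. The Id bar of wild type 20 (3313) is the tallest, the other 3 Id bars lie between 2659.8 and 2746, and Id3 is the largest Id segment in each.

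Of the tissue-specific bHLH factors that pair with E proteins, 24 of 28 listed genes were tested. There were 19 higher and 5 lower in mutant (median log2 fold change 0.19), 8 higher and 3 lower with no overlap (13.4% and 14% of all tested genes), and none passed over all genes; at an unadjusted p under 0.05, 2 were higher and 1 lower, where the shares of all tested genes were 3.12% and 1.15%. Hand2, a patterning factor of the distal jaw, was at 630.0 and 489.6 in wild type 15 and 20, against 728 and 866 in mutant 18 and 14 (log2 fold change 0.52, limma adjusted p = 0.951). Nhlh1, a neuronal factor, had wild-type values of 7.29 and 8.92 and mutant values of 25.8 and 17.3 (1.33, adjusted p = 0.9999). Ascl5 itself had wild-type values of 21.8 and 37.3 and mutant values of 10.6 and 12.1 (-1.29, adjusted p = 0.9999). The sum of the 8 neuron markers was 1047, 1223, 1002 and 2749.5 in libraries 15, 20, 18 and 14, with 7 of the 8 higher in mutant by mean. Without mutant 14 this marker list had 6 lower and 2 higher (median log2 fold change -0.34). Nhlh1 was higher in mutant 18, where the neuron sum was lowest, than in mutant 14. The part of the neuron sum in the Nhlh1 and Id4 values was not tested.

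Upstream in the pathway, 10 of 12 tested BMP ligand genes were lower in mutant (median log2 fold change -0.15), 4 lower and 1 higher with no overlap (14% and 13.4% of all tested genes), and none passed. Bmp4, a main dental mesenchyme and epithelium signal, was at 957 and 996 in wild type 15 and 20, against 805 and 812 in mutant 18 and 14, with no overlap (log2 fold change -0.27, limma unadjusted p = 0.0800). Gdf7, a BMP family ligand of joints and tendons, was low, with 26.4 and 23.0 counts for wild type against 8.90 and 10.8 for mutant (-1.29, adjusted p = 0.988). The ligand list had 6 of 12 lower and a median of -0.075 without wild type 15, and a median of -0.28 without wild type 20.

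Secreted antagonists were mixed, with 9 lower and 5 higher of 14 (median -0.02) and none passing. Sostdc1, a BMP and Wnt antagonist of the tooth germ, had the smallest p, at 1649 and 2067 in wild type 15 and 20, against 1372 and 1489 in mutant 18 and 14 (log2 fold change -0.37, limma adjusted p = 0.9999). Receptors and co-receptors had 3 lower and 8 higher of 11 (median 0.03); the co-receptor gene Rgmb had the smallest p, with 599 and 517 for wild type against 646 and 739.9 for mutant (0.31, unadjusted p = 0.0899). In both lists the named gene, picked for its smallest p, did not overlap between genotypes, and neither passed. With no overlap, 3 antagonist genes were lower and 1 higher, and 1 receptor or co-receptor gene was lower and 2 higher. Over all tested genes, 14% were lower and 13.4% higher in that way. The direction of both lists turned with 1 library left out. The antagonists had 6 of 14 lower (median 0.014) without mutant 18, and the receptors had 7 of 11 lower (median -0.036) without wild type 20 and 1 of 11 lower (median 0.18) without wild type 15.

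Of the 6 receptor-regulated and common Smad genes, 5 were lower and 1 higher (median -0.10), and none passed. The BMP-regulated Smad1 was at 1259 and 1069.6 in wild type 15 and 20, against 967 and 1119 in mutant 18 and 14, Smad5 at 4178, 4001, 3998 and 3896, and Smad9 at 610.04, 545, 496 and 437 in the same order. Smad1 overlapped, while Smad5 and Smad9 were lower in both mutant libraries, by -0.05 and -0.31 on the log2 scale (limma, unadjusted p = 0.701 and 0.0942). For Smad5, wild type 20 and mutant 18 were nearly equal. Of the 6 genes, 3 were lower and 1 higher with no overlap (14% and 13.4% of all tested genes). With values scaled to equal library totals or equal upper quartiles, 2 were lower with no overlap. Smad9 is itself a BMP-induced gene and is also in the list of other response genes below. Per kilobase, the 2 inhibitory Smad genes summed to 0.389 and 0.420 of the 3 BMP-regulated Smad genes in wild type 15 and 20, and to 0.353 and 0.438 in mutant 18 and 14, so this balance overlapped too. Of 10 further negative regulators of Smad signalling 7 were lower and 3 higher (median -0.02), with Tgif1, a Smad co-repressor, at the smallest p (-0.27, limma unadjusted p = 0.124). Without wild type 15 that list had 4 lower and 6 higher (median 0.043), without mutant 18 it had 5 of each (median 0.016), and without wild type 20 and without mutant 14 the medians were -0.16 and -0.17.

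Other genes that respond to BMP in tooth, bone or endothelium divided into 10 lower and 6 higher of 16 tested (median log2 fold change -0.08), with 7 lower and 1 higher with no overlap. None passed over all genes. Over all tested genes 14% were lower and 13.4% higher with no overlap. At an unadjusted p under 0.05, 5 were lower and 1 higher, where the shares of all tested genes were 1.15% and 3.12%. Without wild type 20 the list had 11 of 16 lower and a median of -0.14, and without mutant 14 it had 13 of 16 lower and a median of -0.24. With wild type 15 or mutant 18 left out, 9 of 16 were lower, with medians of -0.12 and -0.10. The difference between this list and the 7 readouts was not tested, and several of these genes were known from earlier results to be low in mutant.

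Msx2, a homeobox gene of the enamel knot and a classic BMP4 target, was at 473 and 549.5 in wild type 15 and 20, against 286 and 305 in mutant 18 and 14. The genotypes did not overlap (log2 fold change -0.79, SE 0.17, limma adjusted p = 0.410), and the 95% interval, -1.18 to -0.39, meets the intervals of all 7 readouts except Id2. Msx1 was at 1402 and 1999 in wild type 15 and 20, against 1392 and 1313 in mutant 18 and 14. Its log2 fold change was -0.31 (interval -0.73 to 0.12, limma unadjusted p = 0.132), and wild type 15 and mutant 18 were nearly equal. The homeobox gene Dlx5 had 1308 and 1379.8 for wild type against 817 and 915 for mutant (-0.64, adjusted p = 0.410), and Dlx3 at 1835 and 2003 against 1273 and 1492 (-0.48, adjusted p = 0.762). The osteoblast transcription factors Runx2 (5201 and 5061 against 4099.8 and 3214) and Sp7 (7047 and 7749 against 5521 and 4598) had log2 fold changes of -0.50 and -0.55 (adjusted p = 0.818 and 0.673). Gata3, which is expressed in epithelia, went the other way, with 263 and 149 for wild type against 306 and 528 for mutant (1.02, adjusted p = 0.905).

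**Figure D4:**
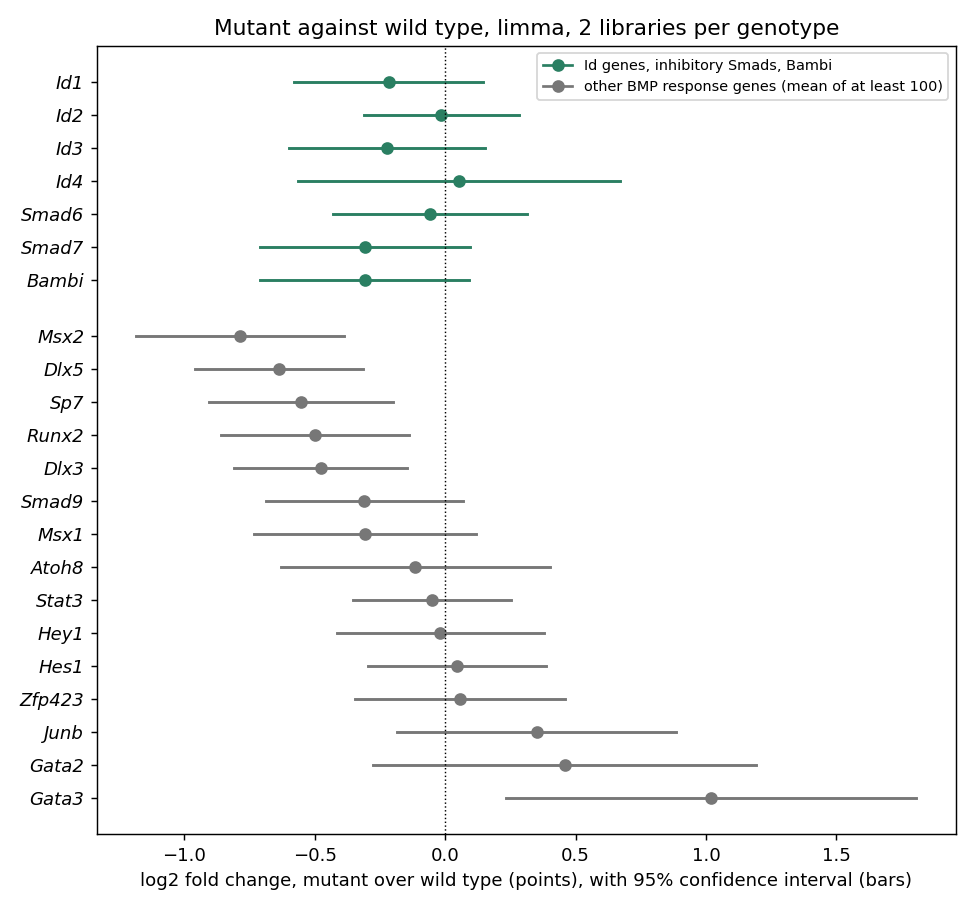
Log2 fold change of mutant over wild type (horizontal axis; points) with its 95% confidence interval (bars), for the 7 BMP readout genes (green) and for other BMP response genes with a mean of at least 100 (grey). All 7 green intervals include 0, while the intervals of Msx2, Dlx5, Sp7, Runx2 and Dlx3 lie below 0 and that of Gata3 above it before adjustment for the number of genes.

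As Smad7 also feeds back on TGF-beta, 11 TGF-beta response genes were read in the same way. Of these 8 were lower and 3 higher (median -0.12), 3 lower and 2 higher with no overlap (14% and 13.4% of all tested genes), and none passed. Tgfbi, a secreted matrix protein induced by TGF-beta, had the smallest p, at 3116 and 3077 in wild type 15 and 20, against 2633 and 2498 in mutant 18 and 14 (-0.27, limma unadjusted p = 0.0646). Without wild type 15 the median of this list turned to 0.027, and without wild type 20 it was -0.27.

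The make-up of the libraries differed in ways that touch these values. Markers of the labelled tissue were present in all 4, with the 8 dental mesenchyme markers summing to 6007, 8094, 6157 and 5161 and the 8 dental epithelium markers to 8914, 16993, 15072 and 14608 in libraries 15, 20, 18 and 14. The dental mesenchyme sum was highest in wild type 20, as were Id1, Id2, Id3 and Bambi, and lowest in mutant 14, as were Id3 and Bambi. That lowest place came from 1 marker, Dspp, at 687, 1346, 1910 and 629 in libraries 15, 20, 18 and 14. The gap in Dspp between mutant 18 and mutant 14 was wider than the gap between their sums, so without Dspp mutant 18 was lowest. The osteoblast sum, given next, had the same highest and lowest libraries, and the dental epithelium sum was also highest in wild type 20. Msx1 (dental mesenchyme) and Sp7 (osteoblast) are also in the list of other BMP response genes. The 8 osteoblast markers, all lower in mutant by mean, summed to 109615, 123843, 116244 and 76276, and the 8 chondrocyte markers, also all lower, to 61746, 49064, 43778 and 37177. The 8 keratinocyte markers, all higher, summed to 77540.4, 73795, 129827.5 and 191801. The part of these differences in the BMP readouts was not tested.

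Endothelial cells, which express Id1, Id3 and Smad6 strongly in many tissues, had marker sums of 12745, 12633, 12801 and 12220.2 in libraries 15, 20, 18 and 14, with 5 of the 8 markers lower and 3 higher in mutant. The sum in wild type 20, where Id1 and Id3 were highest, lay between those of the other libraries, and the part of endothelial RNA in these values was not tested. Salivary gland markers were near 0 in 3 libraries (21.7, 4.98 and 45.9) and at 6178 in mutant 14, the library with the highest Id4 and Smad6, and all 7 tested ones were higher in mutant by mean; Dcpp2, Prol1, Smgc and Bpifa2 were listed at 0 in both wild-type libraries. Schwann cell and glia markers summed to 3394, 2675, 3379.5 and 4130.3, again highest in mutant 14, with 7 of 8 higher by mean. Erythroid markers summed to 259934, 112295, 108866 and 269869, also highest in mutant 14 and lowest in mutant 18. Skeletal muscle markers went the other way, at 179762, 140758, 211533 and 115194, highest in mutant 18 and lowest in mutant 14. The part of these cell types in the Id4 and Smad6 values was not tested. Wild type 15 was the one library with high Xist (38619 against at most 12.7) and the one with Ddx3y at 0 (against at least 2382), so sex differed between the genotypes as sampled, and fold changes without that library are those between male libraries. Among these, the median of the 7 readouts was -0.27. The fit without wild type 15 keeps 1 wild-type library, number 20, so it holds no spread between wild-type libraries. Its log2 fold changes were -0.43 for Id3 and -0.49 for Bambi, and wild type 20 was the highest library for both genes. Without mutant 14, which leaves 1 mutant library, the log2 fold change of Smad7 was -0.47.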

How the data were processed

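RNA was measured in 4 mandibular dental arch libraries, 2 per genotype. The deposited signal values are normalized counts. The submitters' processing notes name DESeq2 and the mouse build mm10, without versions. The sources used here name no aligner, counter, strand setting or annotation. Deposited totals ran from 22134483 to 22578580 per library.

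Genes whose 4 values averaged at least 1 were kept, their values were put on a log2(value + 0.5) scale, and genotype was fitted with limma 3.58.1 (R 4.3.3, mean-variance trend, moderated variances) on all 17979 of them. P-values were adjusted by Benjamini-Hochberg over all tested genes, with a threshold of 0.05. The fit was also run on simulated counts, with the same relative spread for all genes and changes larger than those of the 7 readouts. That run does not show how the fit performs for changes as small as theirs. Exon lengths and positions came from GENCODE M21 (GRCm38, the assembly mm10 denotes), where all 7 symbols matched, and promoters from RefSeq (GRCm38.p6), which held 4 of the 7.

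The members and gene lists were chosen with earlier results of these data known. Genes named outside the members were, in each pathway list, the gene of smallest p and those with an unadjusted p under 0.05, with Ascl5, the E proteins and the BMP-regulated Smads always, and for each member the 2 genes of mean at least 100, Gm and Rik names left out, whose centred log2 profiles lay closest. Other genes named were chosen after their values were seen. Alternatives covered scaling, filter, pseudocount, variance shrinkage and each library left out.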

Additional observations from a re-analysis of the deposited data

How the results depend on the processing

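No paired analysis was made, since the labels give no pairing and the genotypes share no label codes. None of the 7 readouts passed the threshold under any of the 12 alternatives (0 called in each); of 84 values 80 kept their direction and 4 reversed. The reversals came with a library left out: Id2 at 0.015 without wild type 20 and 0.025 without mutant 18, Id4 at -0.36 without mutant 14 and Smad6 at 0.091 without mutant 18. With 1 library left out, log2 fold changes ran from -0.35 to -0.086 for Id1, -0.054 to 0.025 for Id2, -0.43 to -0.022 for Id3, -0.36 to 0.46 for Id4, -0.21 to 0.091 for Smad6, -0.47 to -0.14 for Smad7 and -0.49 to -0.12 for Bambi, and their median from -0.27 to -0.036. Under the 8 other alternatives the median stayed between -0.22 and -0.21. The count of readouts lower with no overlap, checked after the data were seen, was 3 to 6 with a library left out, where 30.6% to 33.1% of all genes were lower with no overlap (5 without wild type 15, 6 without mutant 14), and 2 with equal upper quartiles. Over all genes limma called 2, with 1 called with no filter, 4 with pseudocount 1, 1 with no mean-variance trend, 4 with robust empirical Bayes, and 0 to 6 with a library left out (0 without mutant 18 or mutant 14, with 1219 and 447 at an unadjusted p under 0.05). Causes were not tested. Precision was limited by 2 libraries per genotype: the narrowest 95% interval among the 7, that of Id2, ran from -0.31 to 0.28.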
